A study of Hordeum vulgare with 18 samples.

Results

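The genes described here had lower median levels in leaves under low nitrate in Golden Promise and in Oussama and a flat ratio of medians in Laanaceur. They were selected on these measured values, and the pattern does not hold for every member in single libraries or in a fitted model. The median of the 3 libraries grown under high nitrate (HN) had to be at least 2 times the median of the 3 libraries grown under low nitrate (LN) in Golden Promise (GP) and in Oussama (M5). In Laanaceur (M4) the ratio of medians, HN over LN, had to lie from 0.67 to about 1.5, and the mean over the 18 libraries had to reach 1 CPM, that is 1 read per 1000000 reads counted on genes. Of 43050 genes listed, 17900 reached that mean and 16 met every criterion, of which 3 were left out by name. The remaining 13 genes are the members, and all 13 were among the 19021 genes tested. The 5 genes named for exclusion included HORVU3Hr1G108680 and HORVU2Hr1G013450, annotated as basic helix-loop-helix proteins, and HORVU3Hr1G082580, a Major facilitator superfamily protein, which met the rule. HORVU3Hr1G108670, with an M4 ratio of 0, and HORVU6Hr1G017920, with ratios of 1.85 in M4 and 1.43 in GP, did not.

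Barley (Hordeum vulgare) seedlings were supplied with 0.5 mM nitrate (LN) or 5 mM nitrate (HN) and received 15N-labelled nitrate during the last day. The groups were M4 LN, M4 HN, M5 LN, M5 HN, GP LN and GP HN, with 3 libraries each. M4 and M5 are Moroccan varieties and GP is labelled as the wild type. According to the study's methods, leaf tissue of single plants or pairs of plants was sampled at the seedling stage, while the labels call the tissue aerial. Nitrate is both the main source of nitrogen for such plants and a signal that changes transcription within hours. In leaves it is reduced and built into amino acids, and genes of transport, reduction and carbon supply commonly follow the supply. Genotypes of one species can differ in which of these genes respond.

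A level of 1 CPM corresponded to between 11.8 and 22.3 reads, depending on the library (median 19.2), which is the number of reads on genes per library divided by 1000000. Some libraries stand apart or go against a label. GP HN replicate 1 held transcripts of 16 genes otherwise read in M4 alone, at a median of 14.9% of their level in M4, and GP LN replicate 1 held transcripts of 20 genes otherwise read in M5 alone, at 49.9% of their level in M5. Both lists had a median of 0% in the other GP libraries. M4 HN replicate 4 is titled HN but has a treatment label of 0.5 mM nitrate. Replicates 1 and 2 were harvested in autumn and replicates 3 and 4 in spring by the labels that give a date, and the replicate numbers are not the same in every group. Where they give it, the labels put 14, 21, 147 and 168 days from planting to harvest for replicates 1, 2, 3 and 4. The study's methods give 14 days after sowing, and this conflict was not resolved. In whole leaves, fewer cells of a type and less RNA per cell cannot be told apart. The replicates are described as independent. The p-values set a fitted difference against the spread between these samples, which is estimated over all groups together.

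A product was known for 3 of the 13 members. HORVU3Hr1G059130 is named OBP3-responsive gene 1, after an Arabidopsis gene that responds to the Dof transcription factor OBP3. HORVU3Hr1G082460 belongs to the Major facilitator superfamily, membrane carriers that move small solutes. HORVU4Hr1G083400 is named beta-hydroxylase 1, after an Arabidopsis enzyme that hydroxylates beta-carotene on the way to xanthophylls. The other 10 carried no product in the sources used here. By their identifiers, 5 members lie on chromosome 7H, 3 on 3H, 2 on 4H, 1 each on 5H and 6H, and 1 is unplaced (0H). Chromosome 7H held 14.4% of the genes tested. HORVU3Hr1G082460 is separated by 4 listed genes from HORVU3Hr1G082580, which has the same annotation.

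The 13 members fell into unlike kinds when single libraries were read. In 5 of them, HORVU3Hr1G059130, HORVU3Hr1G064080, HORVU3Hr1G082460, HORVU4Hr1G009380 and HORVU4Hr1G083400, every LN library lay below every HN library in both GP and M5. The study's own list of genes lowered in several genotypes, made on these libraries, holds these members and none of the rest. It marks each of the 5 as significantly lower under LN in both GP and M5. Over all members, every LN library lay below every HN library for 9 in GP, for 6 in M5 and for 0 in M4. The share among all genes tested was 7.01% in GP, 3.48% in M5 and 8.86% in M4. These contrasts chose the members, so nothing is read from the counts.

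**Figure D1:**
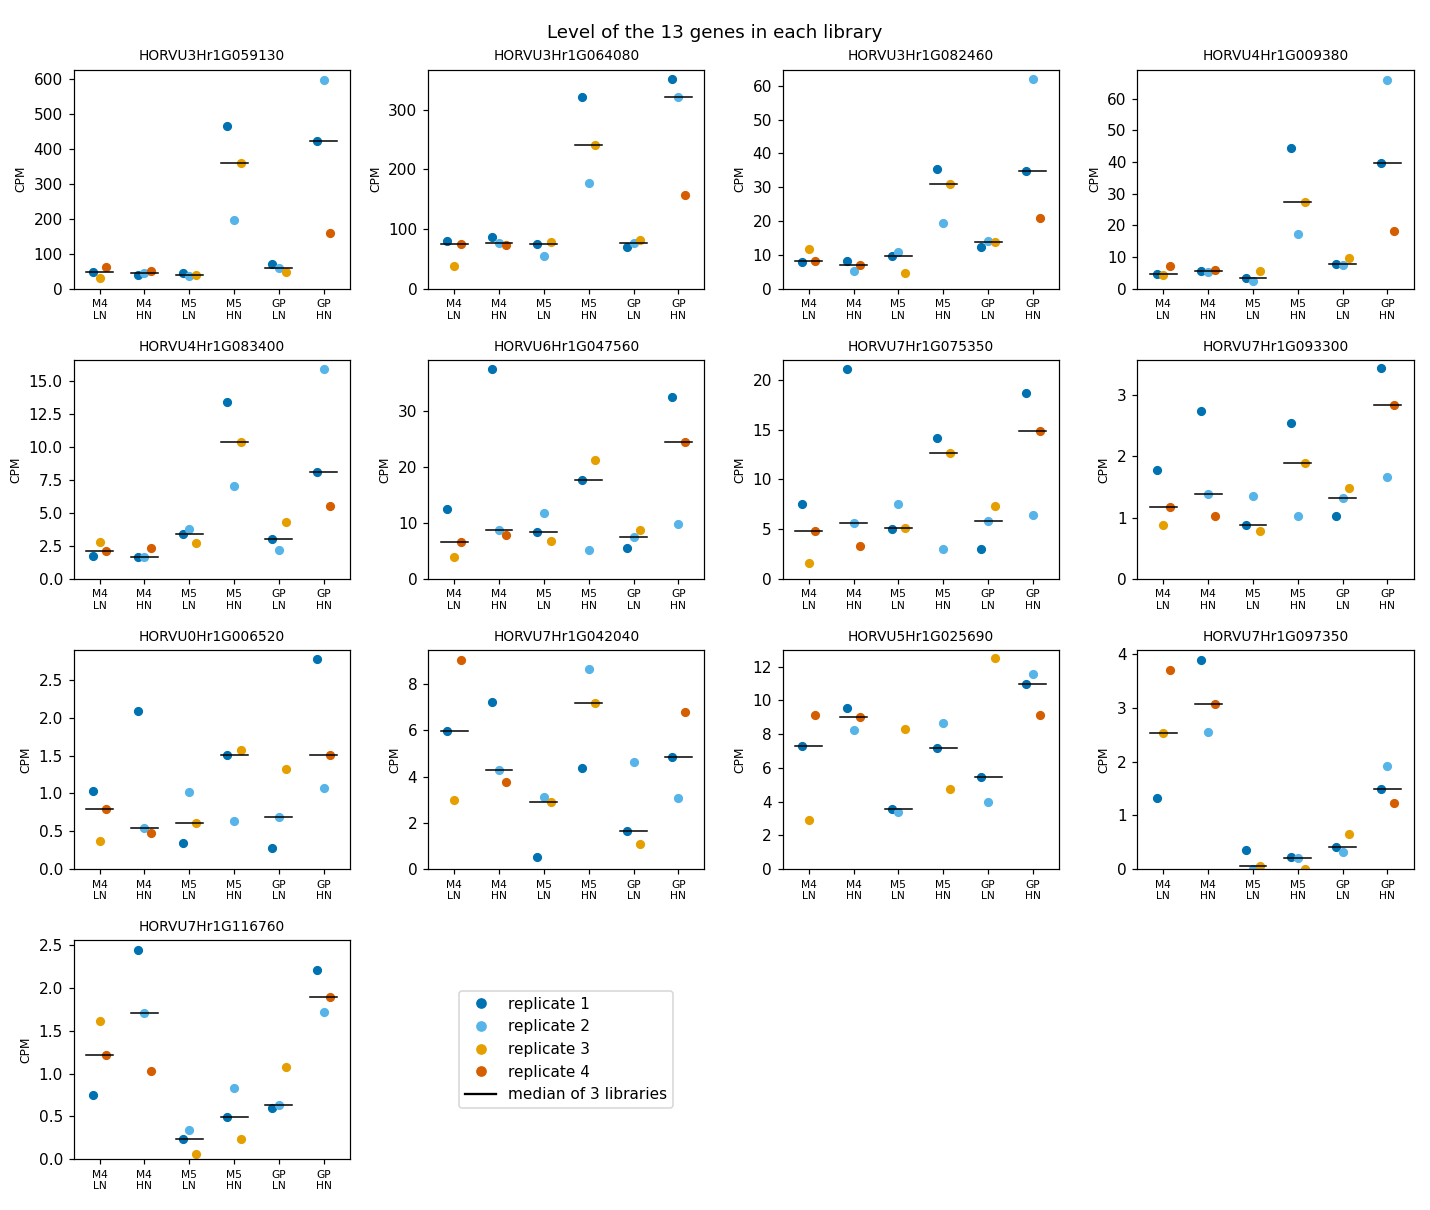
Level in CPM (vertical axis, linear, from 0, a scale of its own for each gene) of the 13 members in 18 libraries, with M4, M5 and GP from left to right, LN left of HN, points coloured by replicate number and a bar at the median of 3 libraries. In the first 5 panels the 6 libraries of M4 lie beside the LN libraries of M5 and GP, while the panels of HORVU6Hr1G047560 and HORVU7Hr1G075350 have 1 high M4 HN library, at 37.5 and 21.0 CPM.

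HORVU3Hr1G059130, OBP3-responsive gene 1, was the most abundant member, with a mean of 153.7 CPM. In M4 it had 47.8, 29.3 and 61.0 CPM in LN libraries, against 38.3, 43.5 and 50.7 CPM in HN libraries. In M5 it had 44.2, 35.8 and 38.2 CPM under LN, against 465.6, 196.8 and 360.2 CPM under HN. GP libraries had 69.5, 59.1 and 48.4 CPM under LN, against 421.6, 597.3 and 159.3 CPM under HN. All 6 M4 libraries were below the lowest HN library of the other genotypes, and none exceeded the highest LN library. The lowest HN library of GP was replicate 4 and that of M5 was replicate 2.

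HORVU3Hr1G064080, which has no product, was nearly as abundant, at a mean of 135.4 CPM. M4 leaves had 80.6, 38.4 and 74.9 CPM under LN, against 86.3, 76.0 and 73.0 CPM under HN. M5 leaves had 74.6, 54.6 and 78.4 CPM under LN, against 322.0, 177.6 and 240.8 CPM under HN. GP leaves had 70.1, 77.3 and 82.1 CPM under LN, against 351.6, 321.2 and 157.3 CPM under HN. Here the LN libraries of the 3 genotypes and the HN libraries of M4 shared one range, and 5 of the 6 M4 libraries did not exceed the highest LN library of GP and M5.

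HORVU3Hr1G082460, the Major facilitator superfamily member, had 7.78, 11.8 and 8.05 CPM in M4 under LN, against 8.17, 5.16 and 6.97 CPM under HN. Its M5 libraries held 9.64, 10.9 and 4.71 CPM under LN, against 35.5, 19.5 and 30.9 CPM under HN. Its GP libraries held 12.4, 14.2 and 13.7 CPM under LN, against 34.9, 61.9 and 20.8 CPM under HN. Each M4 HN library was below 2 of the 3 LN libraries of M5 and below every LN library of GP. This gene was read less than the first pair, and its spread within GP HN was wide.

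HORVU4Hr1G009380, with no product, had the largest ratio in M5 and GP after HORVU3Hr1G059130. It had 4.74, 4.34 and 7.04 CPM in M4 LN libraries, against 5.63, 5.39 and 5.88 CPM in M4 HN libraries. The M5 values were 3.31, 2.28 and 5.49 CPM under LN, against 44.6, 17.4 and 27.3 CPM under HN. The GP values were 7.87, 7.41 and 9.72 CPM under LN, against 39.6, 66.0 and 18.3 CPM under HN. Every M4 library lay below every LN library of GP and above 2 of the 3 LN libraries of M5.

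HORVU4Hr1G083400, beta-hydroxylase 1, was the least abundant of the 5. M4 libraries held 1.74, 2.77 and 2.12 CPM under LN, against 1.64, 1.66 and 2.32 CPM under HN. Those of M5 held 3.37, 3.81 and 2.72 CPM under LN, against 13.4, 7.03 and 10.3 CPM under HN. Those of GP held 3.01, 2.18 and 4.28 CPM under LN, against 8.12, 15.9 and 5.51 CPM under HN. Every M4 library was at or below the highest LN library of GP and M5, and only 2 of the 6 lay within the range of those LN libraries.

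The remaining 8 members were less clearly separated. HORVU6Hr1G047560 had 12.6, 3.93 and 6.51 CPM in M4 LN libraries, against 37.5, 8.80 and 7.86 CPM in M4 HN libraries. In M5 this gene had 8.30, 11.8 and 6.70 CPM under LN, against 17.6, 5.18 and 21.3 CPM under HN. In GP it had 5.56, 7.46 and 8.81 CPM under LN, against 32.5, 9.85 and 24.4 CPM under HN. The highest value of this gene in any library was therefore in M4 under HN, and its flat M4 ratio of 1.35 is a ratio of middle values. M5 LN and HN libraries overlapped.

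HORVU7Hr1G075350 behaved alike, with 7.55, 1.57 and 4.77 CPM in M4 under LN, against 21.0, 5.57 and 3.28 CPM under HN. HORVU7Hr1G093300 ranged from 0.878 to 1.78 CPM in M4 LN libraries, against 1.03 to 2.74 CPM in M4 HN libraries. HORVU0Hr1G006520 ranged from 0.370 to 1.03 CPM in M4 LN libraries, against 0.478 to 2.09 CPM in M4 HN libraries. For these 3 genes, as for HORVU6Hr1G047560, M4 HN replicate 1 was the highest and M4 HN replicate 4 the lowest of the M4 HN libraries. HORVU5Hr1G025690 had the smallest ratios, and its LN and HN libraries overlapped in all 3 genotypes, with 2.91 to 9.16 CPM under LN against 8.26 to 9.57 CPM under HN in M4. HORVU7Hr1G042040 had 3.00 to 9.06 CPM under LN against 3.76 to 7.23 CPM under HN in M4, and was separated in M5 alone, with 0.523 to 3.13 CPM under LN against 4.38 to 8.64 CPM under HN.

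Another 2 members on 7H were nearly silent in M5. HORVU7Hr1G097350 had 1.31, 2.54 and 3.71 CPM in M4 under LN, against 3.89, 2.56 and 3.08 CPM under HN. In M5 its read counts were 6, 0 and 1 under LN, against 4, 4 and 0 under HN, so its M5 ratio rests on 15 reads in all. GP had 0.417, 0.318 and 0.659 CPM under LN, against 1.5, 1.91 and 1.23 CPM under HN. This gene meets the rule in M5 by a ratio of values close to 0. HORVU7Hr1G116760 was also low in M5, with 0.232, 0.338 and 0.0604 CPM under LN against 0.487, 0.830 and 0.237 CPM under HN, from 38 reads. In M4 it had 0.750, 1.62 and 1.22 CPM under LN, against 2.44, 1.71 and 1.03 CPM under HN. The LN and HN libraries of this gene overlapped in M4 and in M5, and it was separated in GP, with 0.602 to 1.07 CPM under LN against 1.72 to 2.21 CPM under HN.

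The ratios behind the selection were as follows, HN over LN, with values above 1 meaning lower under LN. HORVU3Hr1G059130 had a ratio of 0.909 in M4, 9.42 in M5 and 7.14 in GP. HORVU4Hr1G009380 had 1.19 in M4, 8.24 in M5 and 5.04 in GP. For HORVU3Hr1G064080 the ratios were 1.02 in M4, 3.23 in M5 and 4.16 in GP. The other members had ratios from 2.03 to 3.24 in M5 and from 2.004 to 3.58 in GP. Just inside the limits stood HORVU5Hr1G025690, with 2.004 in GP and 2.03 in M5, HORVU0Hr1G006520, with 0.678 in M4 and a mean of 1.04 CPM, and HORVU7Hr1G116760, with 1.40 in M4. Just outside stood HORVU0Hr1G018100 with 1.95 in GP, HORVU2Hr1G040740 with 1.89 in M5, HORVU3Hr1G112080 with 0.580 and HORVU5Hr1G048100 with 1.57 in M4, and HORVU7Hr1G118950 with a mean of 0.998 CPM.

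The same criteria with the genotypes exchanged, and with no gene left out, found 9 genes lowered under LN in GP and M4 with a flat M5 ratio and 6 lowered in M4 and M5 with a flat GP ratio, beside the 16 lowered in GP and M5. Genes lowered in all 3 genotypes numbered 8 and genes raised in all 3 numbered 42. In the raised direction the counts were 22 with a flat M4 ratio, 23 with a flat M5 ratio and 27 with a flat GP ratio. Such sets were thus found for each genotype set apart, in both directions.

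Across all genes, the response to LN was fitted with edgeR with the replicate number as a term, and log2 fold changes are LN over HN. These fits describe the contrasts that chose the members. In M4 the fitted changes of the 5 separated genes ran from -0.26 to 0.50. In M5 they ran from -3.23 to -1.77 and in GP from -2.70 to -1.63. The other 8 members ran from -1.22 to 0.28 in M4, from -1.75 to -0.17 in M5 and from -1.73 to -0.67 in GP. The median over all genes tested was -0.01 in M4, 0.02 in M5 and 0.01 in GP.

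**Figure D2:**
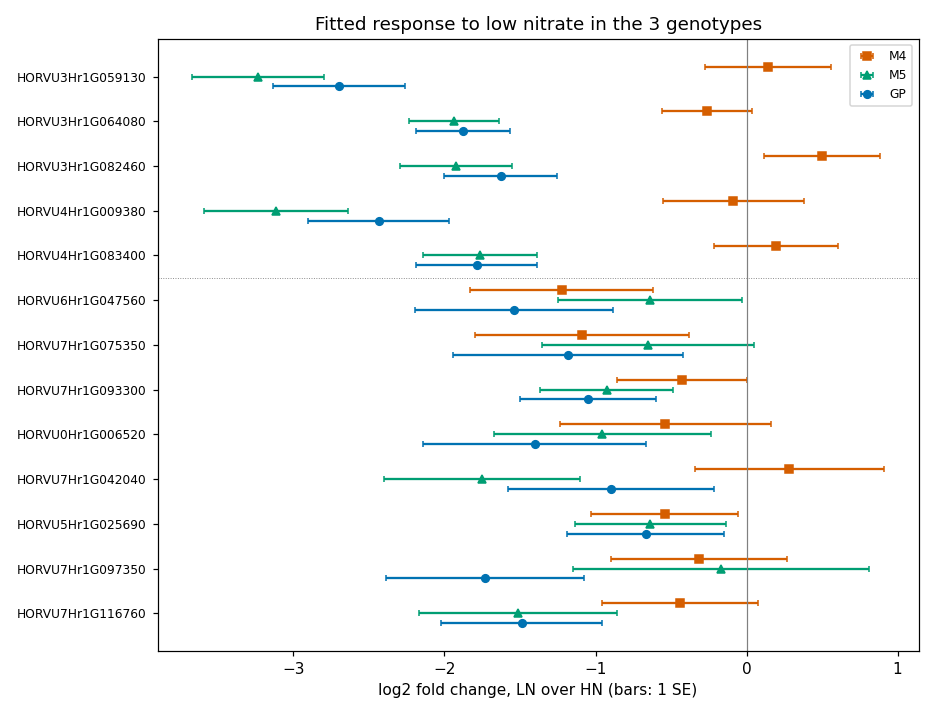
Fitted log2 fold change, LN over HN (horizontal axis), of each member in M4 (squares), M5 (triangles) and GP (circles), with bars of 1 SE. Above the dotted line stand the 5 genes separated in both GP and M5, with M4 values from -0.26 to 0.50, and below it the other 8, whose M4 values reach -1.22.

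HORVU3Hr1G059130 had a fitted change of 0.14 ± 0.42 (SE) in M4, -3.23 ± 0.44 in M5 and -2.70 ± 0.44 in GP. HORVU4Hr1G009380 had -0.09 ± 0.47 in M4, -3.12 ± 0.48 in M5 and -2.43 ± 0.47 in GP. By contrast, HORVU6Hr1G047560 had -1.22 ± 0.60 in M4, -0.64 ± 0.61 in M5 and -1.54 ± 0.66 in GP, and HORVU7Hr1G075350 had -1.09 ± 0.71 in M4, -0.66 ± 0.70 in M5 and -1.18 ± 0.76 in GP. For this pair the fitted change in M4 was as negative as in GP or M5, within the errors, while the ratio of medians was flat. HORVU7Hr1G097350 had -0.32 ± 0.58 in M4, -0.17 ± 0.98 in M5 and -1.73 ± 0.66 in GP. HORVU7Hr1G042040, with 0.28 ± 0.63 in M4, -1.75 ± 0.65 in M5 and -0.90 ± 0.68 in GP, and HORVU7Hr1G116760, with -0.44 ± 0.51 in M4, -1.51 ± 0.66 in M5 and -1.49 ± 0.53 in GP, were closer to the 5 separated genes. A description as lowered except in Laanaceur therefore suits some members and not others.

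With the quasi-likelihood test and Benjamini-Hochberg adjustment, 0 members were called in M4 (0% of the genes tested were called lower), 3 were called lower in M5 (0.0578% of all) and 0 in GP (0% of all). The 3 in M5 were HORVU3Hr1G059130, HORVU3Hr1G064080 and HORVU4Hr1G009380. Unadjusted p was under 0.05 for 0 members in M4 (7.79% of all genes tested), 7 in M5 (7.39%) and 9 in GP (5.5%). In M4, 0 members were called by the edgeR likelihood ratio test, by DESeq2 or by limma-voom. The likelihood ratio test called 5 members in M5 (0.357% of all) and 5 in GP (0.0736% of all), and DESeq2 likewise 5 in M5 (0.836% of all) and 5 in GP (0.0736% of all). With limma-voom the counts were 2 in M5 (0.0473% of all) and 0 in GP (0.0263% of all). Without a replicate block, the quasi-likelihood test called 2 members in GP (0.0263% of all), HORVU3Hr1G059130 and HORVU3Hr1G064080. The M5 calls were lost without both GP replicate 1 libraries, where 0 members were called, although the fitted change of HORVU3Hr1G059130 was then -3.24 in M5 and -2.75 in GP. Leaving out 1 library gave 0 to 3 members in M5 and 0 to 3 in GP, with 3 in GP without GP HN replicate 4 and 0 in M5 without M4 HN replicate 2, without either M5 HN replicate 1 or 3, or without either M5 LN replicate 1 or 2. The M5 count was 1 without GP HN replicate 1, GP LN replicate 2 or 3, M4 HN replicate 1 or 4, or M4 LN replicate 1. In M4, without M4 HN replicate 4, the fitted change was 0.44 for HORVU3Hr1G059130 and -1.66 for HORVU6Hr1G047560, and 0 members were called.

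The response of M4 minus the mean response of M5 and GP, also fixed in part by the selection, was 3.10 ± 0.52 (SE) on the log2 scale for HORVU3Hr1G059130 and 2.69 ± 0.56 for HORVU4Hr1G009380. It was 1.64 to 2.28 for the other 3 separated genes. HORVU6Hr1G047560 and HORVU7Hr1G075350 had -0.14 ± 0.76 and -0.17 ± 0.90. The quasi-likelihood test called 0 members (0.00526% of the genes tested were called higher), with unadjusted p under 0.05 for 5 of them (4.54% of all), and limma-voom called 0. The likelihood ratio test called 4 (0.0894% of all), DESeq2 4 (0.116% of all), and the quasi-likelihood test without a replicate block 1 (0.0158% of all). With the block it also called 1 without GP HN replicate 4.

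The selection asked for a fall of at least 2 times in both M5 and GP. The response of M5 minus that of GP was therefore limited in part by it. Over the 13 members this difference ran from -0.86 to 1.56 on the log2 scale, with a median of 0.02. For HORVU3Hr1G059130 it was -0.53 ± 0.58 (SE) and for HORVU3Hr1G064080 it was -0.06 ± 0.42. The quasi-likelihood test called 0 members (0% of the genes tested were called higher), with unadjusted p under 0.05 for 0 (4.04% of all), and the likelihood ratio test, DESeq2 and limma-voom called 0 as well. The SE of this difference, taken from the fold change and F, ran from 0.41 to 1.21 over the members. The 0.41 belongs to HORVU7Hr1G116760, with a difference of -0.02, and such an SE is unreliable near 0. In M5 alone the SE of that gene was 0.66. HORVU7Hr1G097350, with a difference of 1.56 ± 1.21, was not called, so large differences between M5 and GP could also go uncalled.

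For members well above the limit of 1 CPM, whether M4 stood at the level of low or of high supply was not set by the selection, since a flat ratio can hold at either. The 5 separated genes were lower in M4 than in the mean of M5 and GP, averaged over LN and HN. With a flat M4 and a fall in M5 and GP, some difference from that mean follows if M4 stands at either level. Its direction was open, while its size and adjusted p rest in part on the values used in the selection. Among all genes tested 7.08% were called lower and 9.62% higher in M4 in this comparison, so that differences of level between the genotypes are common. HORVU3Hr1G059130 was lower by a log2 fold change of -1.52 ± 0.31 (SE, edgeR quasi-likelihood, adjusted p = 0.00416), HORVU4Hr1G083400 by -1.37 ± 0.27 (edgeR, adjusted p = 0.00361) and HORVU4Hr1G009380 by -1.24 ± 0.32 (edgeR, adjusted p = 0.0193). HORVU3Hr1G082460 had -1.08 ± 0.25 and HORVU3Hr1G064080 -0.89 ± 0.21, which also passed. Another 6 members had -0.39 to 0.59 and did not pass. HORVU7Hr1G097350 and HORVU7Hr1G116760 reached the mean of 1 CPM only through their M4 libraries, since the other 12 libraries averaged 0.570 and 0.859 CPM. Their differences of 2.92 ± 0.39 and 1.29 ± 0.32 in this comparison, both higher in M4, are therefore a description with no test.

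**Figure D3:**
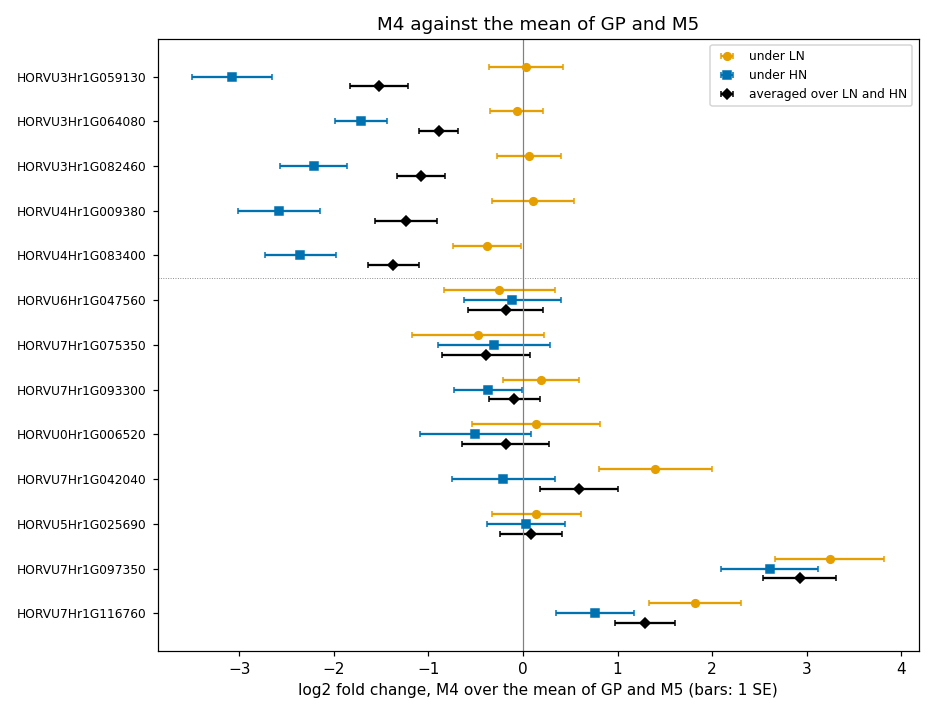
Fitted log2 fold change of M4 over the mean of GP and M5 (horizontal axis) for each member under LN (orange circles), under HN (blue squares) and averaged over both (black diamonds), with bars of 1 SE. For the 5 genes above the dotted line the LN values lie from -0.38 to 0.11 and the HN values from -3.07 to -1.71, while HORVU7Hr1G097350 is higher in M4 under both supplies.

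Split by supply, the lower level of the 5 genes in M4 was seen under HN. Under LN their M4 level differed from the mean of M5 and GP by -0.38 to 0.11 on the log2 scale, and under HN by -3.07 to -1.71. HORVU3Hr1G059130, for instance, had 0.03 ± 0.39 (SE) under LN and -3.07 ± 0.42 under HN. The difference between both values is the response used in the selection and was not tested again. HORVU7Hr1G097350 had 3.24 ± 0.58 under LN and 2.61 ± 0.51 under HN, and HORVU7Hr1G116760 had 1.82 ± 0.49 under LN and 0.76 ± 0.41 under HN. HORVU7Hr1G042040 had 1.40 ± 0.60 under LN and -0.21 ± 0.54 under HN, although its M4 LN libraries, at 3.00 to 9.06 CPM, overlapped those of M5, at 0.523 to 3.13 CPM, and of GP, at 1.07 to 4.64 CPM.

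The 5 calls held with each other test and normalization, and without both GP replicate 1 libraries, where HORVU3Hr1G059130 had -1.48. HORVU4Hr1G009380 was not called without M4 HN replicate 1 or 2 or without M4 LN replicate 1 or 3, and HORVU3Hr1G082460 was not called without M4 HN replicate 2.

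M5 was also set against GP, averaged over LN and HN. HORVU7Hr1G097350 was lower in M5 than in GP by a log2 fold change of -2.41 ± 0.56 (SE, edgeR quasi-likelihood, adjusted p = 0.0118). It had 15 reads in all M5 libraries together, and it is a member only through its M4 level. The call was lost without both GP replicate 1 libraries and M4 HN replicate 4 (edgeR quasi-likelihood, adjusted p = 0.0583). Of all genes tested 7.08% were called lower in M5. HORVU7Hr1G116760 had -1.91 ± 0.41, which is a description, since its mean without the GP libraries was 0.912 CPM and it reached 1 CPM only with them. The other 11 members had -0.88 to 0.27 and did not pass. Of these, HORVU4Hr1G009380 at -0.88 ± 0.33 was called lower by the likelihood ratio test (edgeR, adjusted p = 0.0468, 8.55% of all called lower) and by DESeq2 (adjusted p = 0.039, 8.21% of all), and by the quasi-likelihood test without GP HN replicate 4 or without M5 HN replicate 1. With every library its quasi-likelihood adjusted p in edgeR was 0.109, and over the alternatives it ran from 0.0192 to 0.305. Under HN, HORVU7Hr1G097350 had 2.56 to 3.89 CPM in M4 libraries, 0 to 0.216 CPM in M5 libraries and 1.23 to 1.91 CPM in GP libraries. The M5 values rest on 4, 4 and 0 reads. Its M4 level is tied to the selection, since the gene reached the mean of 1 CPM only through M4.

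Libraries that share a replicate number were compared as pairs, since the numbers stand for harvests. CPM was here scaled by TMM, which sets libraries to a common level over most genes. The median member changed by -0.37 (log2, LN over HN) in the M4 pair of replicate 1 and by 0.28 in that of replicate 4. In the replicate 4 pair, the library taken as HN is the one whose title and label disagree on the supply. That pair may therefore hold no contrast of supply. Whether this sets it apart from the M4 pair of replicate 1 was not tested. In M5 the median was -2.04, -1.29 and -1.71 in replicates 1, 2 and 3, and in GP it was -1.85 and -1.51 in replicates 1 and 2. The median over all genes tested lay between -0.02 and 0.03 in these 7 pairs with this scaling. With CPM by the sum of gene counts it was 0.16, 0.15 and 0.08 in the M5 pairs and from -0.05 to 0.02 in the others, and the medians of the members were then -1.88, -1.17 and -1.61 in M5, -0.39 and 0.23 in M4, and -1.84 and -1.53 in GP. In the M4 pairs 11 of 13 members were lower under LN in replicate 1 (52.1% of all genes tested) and 2 of 13 in replicate 4 (50.3% of all). For most of the other members the change differed more between the M4 pairs than for the 5 separated genes. HORVU6Hr1G047560 had -1.56 in replicate 1 and -0.22 in replicate 4, HORVU7Hr1G075350 had -1.46 and 0.58, and HORVU7Hr1G116760 had -1.66 and 0.28. HORVU3Hr1G059130 had 0.33 and 0.31 in the same pairs. The other separated genes had smaller values in replicate 1 and changed sign. HORVU3Hr1G064080 had -0.09 and 0.08, and HORVU3Hr1G082460 had -0.06 and 0.25. HORVU4Hr1G009380 had -0.24 and 0.31, and HORVU4Hr1G083400 had 0.09 and -0.09.

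**Figure D4:**
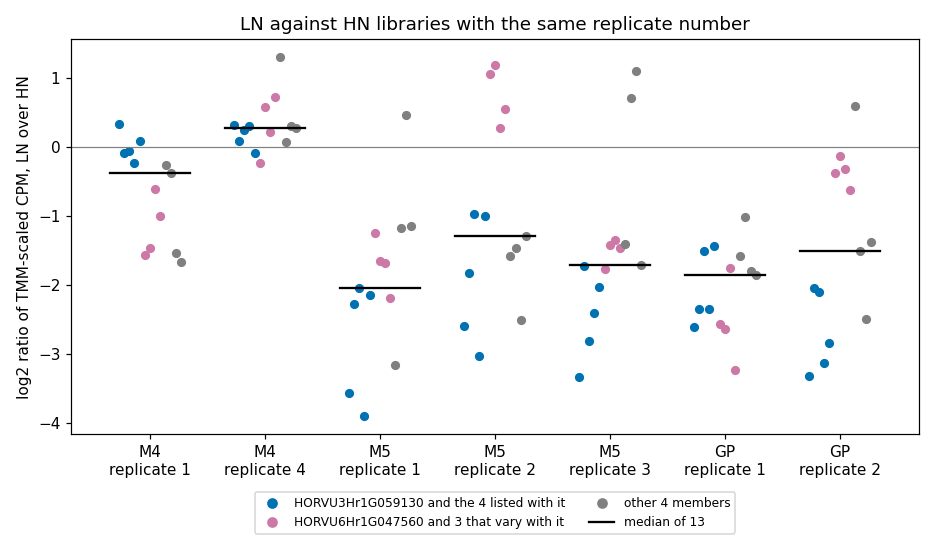
Log2 ratio of TMM-scaled CPM, LN over HN (vertical axis), of the 13 members in the 7 pairs of libraries that share a genotype and a replicate number, with a bar at the median of the 13. The 5 separated genes (blue) lie near 0 in both M4 pairs and below 0 in every pair of M5 and GP, while HORVU6Hr1G047560 and the 3 genes that vary with it (pink) lie above 0 in the M5 pair of replicate 2. The M4 pair of replicate 4 may hold no contrast of supply, since the title and label of its HN library disagree.

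In the 5 pairs of M5 and GP, 6 members were lower under LN in every pair. These were the 5 separated genes and HORVU7Hr1G116760. The same libraries chose the members, and the share among all genes was not counted, so nothing is read from this count. In the M5 pair of replicate 2, HORVU3Hr1G059130 changed by -2.59 and HORVU3Hr1G082460 by -0.96, for each of them the smallest change in any pair of M5 and GP. In the M5 pair of replicate 2 only 9 of 13 members were lower (47.5% of all genes tested). Spring against autumn harvests gave log2 changes of -0.25 to 0.32, with 0 members called by the edgeR quasi-likelihood test (0% of all genes tested), 0 with unadjusted p under 0.05 (4.65% of all), and 0 called by the likelihood ratio test, DESeq2 or limma-voom.

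The variation left after the group means were removed is a further description. It is not independent of the selection, since a median of 3 libraries depends on which library lies in the middle. Over the 18 libraries, Pearson r of the deviations of log2 TMM-scaled CPM had a median of 0.10 over the 78 pairs of members, from -0.54 to 0.96, against -0.003 over pairs of all genes tested. These correlations share their libraries and depths and are a description. The 5 separated genes had r from 0.16 to 0.80 among themselves, with a median of 0.54. HORVU3Hr1G059130 and HORVU3Hr1G064080 reached 0.80, and HORVU3Hr1G082460 and HORVU4Hr1G083400 reached 0.75. In all 5, M5 HN replicate 1 was the highest and M5 HN replicate 2 the lowest of the M5 HN libraries, and GP HN replicate 4 was the lowest of the GP HN libraries.

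**Figure D5:**
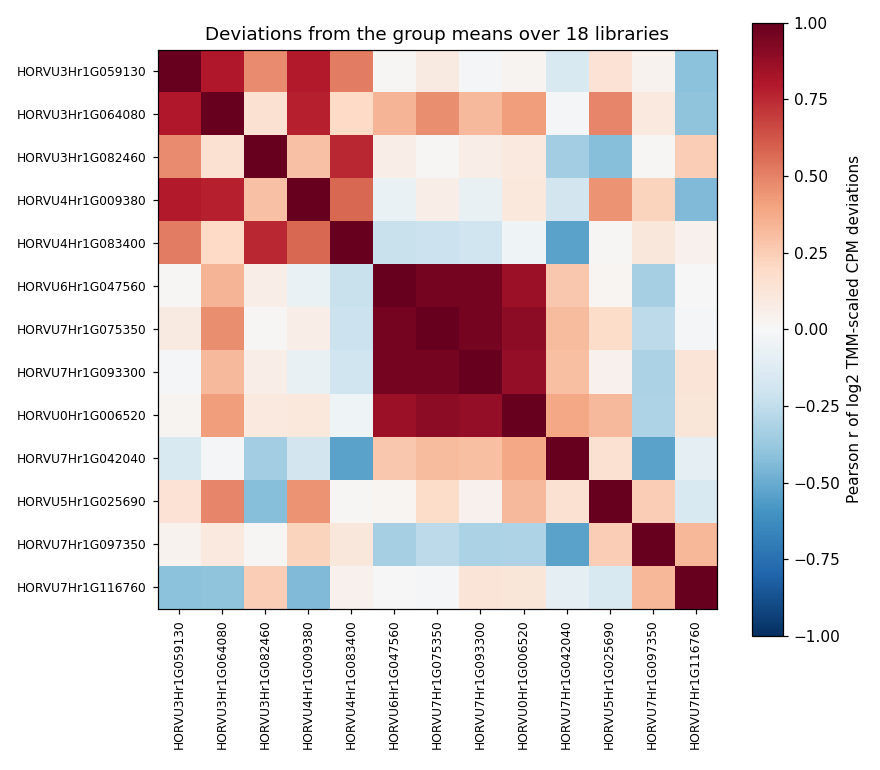
Pearson r (colour scale from -1 to 1) between members of the deviations of log2 TMM-scaled CPM from the group means over 18 libraries. A dark block of 4 genes, from HORVU6Hr1G047560 to HORVU0Hr1G006520, has r from 0.85 to 0.96, and a looser one at the upper left, of the 5 separated genes, has r from 0.16 to 0.80.

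HORVU6Hr1G047560, HORVU7Hr1G075350, HORVU7Hr1G093300 and HORVU0Hr1G006520, grouped after their values were seen, had r from 0.85 to 0.96 (median 0.93). Between these 4 and the 5 separated genes the median was 0.05. All 4 failed the rule with means in place of medians, and without M4 HN replicate 2 or 4. Their shared deviations therefore had a part in their selection. Within their groups these 4 genes were highest in replicate 1 of M4 LN, M4 HN and GP HN, and lowest in GP HN replicate 2 and M5 HN replicate 2. Many other genes moved in the same way: 235 genes tested had r of at least 0.8 with HORVU6Hr1G047560 and 340 with HORVU7Hr1G075350, against 4 with HORVU3Hr1G059130, 3 with HORVU4Hr1G009380 and 37 with HORVU3Hr1G064080. Of the genes left out, HORVU3Hr1G108680 had r of 0.88 with HORVU3Hr1G064080.

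Membership was recomputed without each library in turn. The 5 separated genes met the rule in all 18 cases, and each of the other 8 failed it at least once. HORVU5Hr1G025690 and HORVU0Hr1G006520 met it in 8 of 18 cases each, and HORVU7Hr1G042040 in 14. Without M4 HN replicate 4, the library whose labels disagree, HORVU6Hr1G047560, HORVU7Hr1G075350, HORVU7Hr1G093300, HORVU0Hr1G006520 and HORVU7Hr1G116760 failed the rule and 9 genes met it, 8 of them members. Without both GP replicate 1 libraries 12 genes met it, 8 of them members.

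Reads on the opposite strand were few. Pooled over 18 libraries they came to a median of 0.0697% of the reads of a member, against 0.0868% over all genes tested. The highest shares were 0.795% for HORVU4Hr1G009380 and 0.778% for HORVU4Hr1G083400, and 8.18% of the genes tested exceeded 5%. The values of the members thus come from reads in the annotated direction.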

How the data were processed

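RNA was sequenced in 18 leaf libraries as single reads of 75 bases from stranded poly(A) libraries. The authors trimmed reads with Trimmomatic 0.36, removed rRNA with sortMeRNA 2.1 and mapped them with STAR 2.7.3a to the IBSC_v2 annotation (release 48). The deposited values are raw counts per gene, unstranded and for each strand, of which the reverse-strand counts were used. Multimapping reads (14.9 to 16.7% of a library) were not counted, so genes with near-identical copies are uncertain. The 4 summary lines that name no gene were left out, with unmapped reads at 1.66 to 2.53%, reads off genes at 5.05 to 5.92%, and at most 0.0104% ambiguous.

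CPM was the reverse count over the sum of all genes, times 1000000. Groups came from the sample titles. As in the study's methods, the model (edgeR 4.0.16, R 4.3.3, TMM) held a term for the condition, here the 6 groups, and the replicate number. It took in the 19021 genes above 1 CPM in 3 or more libraries. The study describes a negative binomial log-linear model in edgeR and names no quasi-likelihood test, so its calls may rest on another test. Calls needed a Benjamini-Hochberg adjusted p under 0.05 in the quasi-likelihood test over all of these genes, and the code was tested on simulated data. The SE is the log2 fold change over the square root of F. Log2 ratios within pairs and deviations used TMM-scaled CPM with a prior count of 0.5. The replicate block rests on the labels, which tie a number to a harvest day where they give one. Between libraries of different groups, the correlation of deviations from group means had a median of -0.00337 for 34 pairs that share a number (7 above 0.1), and of 0.00843 for the 101 pairs that do not (20 above 0.1).

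Named genes were the members in the study's list of lowered genes, the 3 most abundant, the 3 with the largest smaller ratio, the 2 largest rises and falls in M4, the 2 with the most antisense reads, and those next to each limit. Other members are named after their values were seen. The members and lists were chosen with earlier results of these data known. Alternatives were no replicate block, a block of 2 seasons, the likelihood ratio test, DESeq2 1.42.0, limma-voom (limma 3.58.1), RLE size factors, no low-count filter, unstranded counts, both GP replicate 1 libraries left out, and each library left out. Leaving out those libraries together with M4 HN replicate 4, and the alternatives for both differences of response, were chosen after seeing the data. No list of cell type markers and no sequence was used here.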

Additional observations from a re-analysis of the deposited data

How the results depend on the processing

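The number of genes that met the rule was 13, and 8 with a mean of at least 5 CPM or with a narrower range of the M4 ratio from 0.8 up. The number was 9 to 21 without 1 library, with 21 without GP HN replicate 2 and 20 without GP HN replicate 4. Means in place of medians gave 17 genes, 7 of them members, and TMM-scaled CPM 18, with 12 members. In GP the members called numbered 0, against 2 without a replicate block, 2 with a block of 2 harvest seasons and 5 by the likelihood ratio test or DESeq2, and 0 to 3 without 1 library. In M5 they numbered 3, against 5 by the likelihood ratio test or DESeq2, 0 without both GP replicate 1 libraries, with or without M4 HN replicate 4, and 0 to 3 without 1 library. For the response of M4 minus the mean of M5 and GP the count was 0, against 1 without a replicate block, 4 by the likelihood ratio test or DESeq2, and 0 to 1 without 1 library. M4 against the mean of M5 and GP gave 5 to 7 calls without 1 library, the 2 members that reached 1 CPM only through M4 included, and M5 against GP 2 to 3, with 1 without both GP replicate 1 libraries and M4 HN replicate 4. For LN against HN in M4, for spring against autumn and for the response of M5 minus that of GP the range without 1 library was 0 to 0. The causes were not tested, and no other count of calls moved by more than 1.5 times without the replicate block. The median antisense share per library was 0%. Members with a mean under 5 CPM, 5 of the 13, rest on few reads per library, and 3 libraries per group limit each test.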
